A study of Rattus norvegicus with 16 samples.

Results

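Mt-co1, Mt-co2, Mt-co3, Mt-atp6, Mt-atp8 and Mt-cyb are 6 of the protein-coding genes that rats carry on the mitochondrial chromosome, and they are followed here through 16 RNA-sequencing libraries. They were taken as the rows with the Ensembl IDs ENSRNOG00000034234, ENSRNOG00000030371, ENSRNOG00000030700, ENSRNOG00000031979, ENSRNOG00000033299 and ENSRNOG00000031766, in that order, 6 of the 32883 gene IDs in each count file. The names come with this list of IDs. The files hold IDs alone, and the gene table at hand gives a name for 0 of the 6, so no ID was dropped.

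The libraries came from the hypothalamus (dissection named MBH-PoA) of female Wistar rats aged 21 days, 4 samples in each of 4 groups. F1 EDC rats were exposed in utero, along the maternal line, to endocrine disrupting chemicals (EDC) given as a mixture in food, from 2 weeks before gestation until lactation ended, and F1 control rats were the vehicle counterpart. F3 EDC and F3 control rats had only ancestral exposure to the mixture or to vehicle. The titles of the EDC samples read Control, so groups follow the source descriptions, which match the treatment fields. The labels do not say whether rats of a group came from separate litters, so p-values measure the spread between these samples. File names carry one lane number for all F1 libraries and another for all F3 libraries, so effects of generation and of sequencing cannot be told apart. The stated protocol put 4 samples on a lane, whereas each number in the file names covers 8 libraries, so it may not stand for a single lane. The labels do not say which samples shared a lane. A lane difference between control and EDC within a generation thus cannot be told apart from treatment either. Because the IDs were not paired with names, the labelled tissue was not checked against marker genes.

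Electrons pass along the inner mitochondrial membrane through respiratory complexes that pump protons, and ATP synthase uses the returning protons to make ATP. Cytochrome b, encoded by Mt-cyb, sits in complex III and hands electrons on towards cytochrome c. Mt-co1, Mt-co2 and Mt-co3 encode the core of complex IV, cytochrome c oxidase, which passes those electrons to oxygen. Mt-atp6 and Mt-atp8 encode membrane subunits of complex V, ATP synthase. In mammals these genes are read from the same strand of the mitochondrial DNA as parts of long precursor RNAs that are then cut into separate messages, and Mt-atp8 and Mt-atp6 share a message on which their reading frames overlap. Nerve tissue depends heavily on this pathway.

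Gene counts per library ran from 5655354 to 35981898, and reads mapping to several places, which are left out of gene counts, took 15.7% to 51.6% of all reads. The 6 genes together took 3.71% to 9.58% of a library's gene counts. Mt-co1 ranked between 1 and 3 by count among all gene IDs in each of the 16 libraries. Mt-co2, Mt-co3, Mt-atp6 and Mt-cyb ranked between 3 and 11. The row of Mt-atp8 was far lower, with 662 to 6164 counts and a rank between 528 and 4127. Reads that overlap more than 1 gene are set apart as ambiguous in files of this layout, and they took 0.361% ± 0.0860 of all reads for F1 control, 0.249% ± 0.0276 for F1 EDC, 0.610% ± 0.159 for F3 control and 0.596% ± 0.155 for F3 EDC (SD, n = 4 each). Their part in the counts of Mt-atp8 was not tested. The 95% Wilson interval of a single library's share reached at most 1.15% of that share to either side for the other 5 genes and 7.62% for Mt-atp8. Such intervals cover counting error only.

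The summed share was lowest in F1 EDC. It was 5.98%, 5.67%, 5.02% and 5.03% of gene counts in F1 control replicates 1 to 4, and 3.71%, 3.74%, 3.86% and 4.48% in F1 EDC. In F3 it was 6.25%, 8.45%, 9.58% and 7.94% in control and 7.79%, 7.19%, 8.42% and 7.16% in EDC. All F1 EDC libraries thus lay below all F1 controls, all 8 F3 libraries lay above all 8 F1 libraries, and the F3 groups overlapped. Group means were 5.42% ± 0.478 for F1 control and 3.95% ± 0.363 for F1 EDC, then 8.06% ± 1.39 for F3 control and 7.64% ± 0.595 for F3 EDC (SD, n = 4 each). With all reads as the denominator, multimapping and unmapped ones included, the means were 2.08%, 1.15%, 3.60% and 3.65% in the same order.

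**Figure D1:**
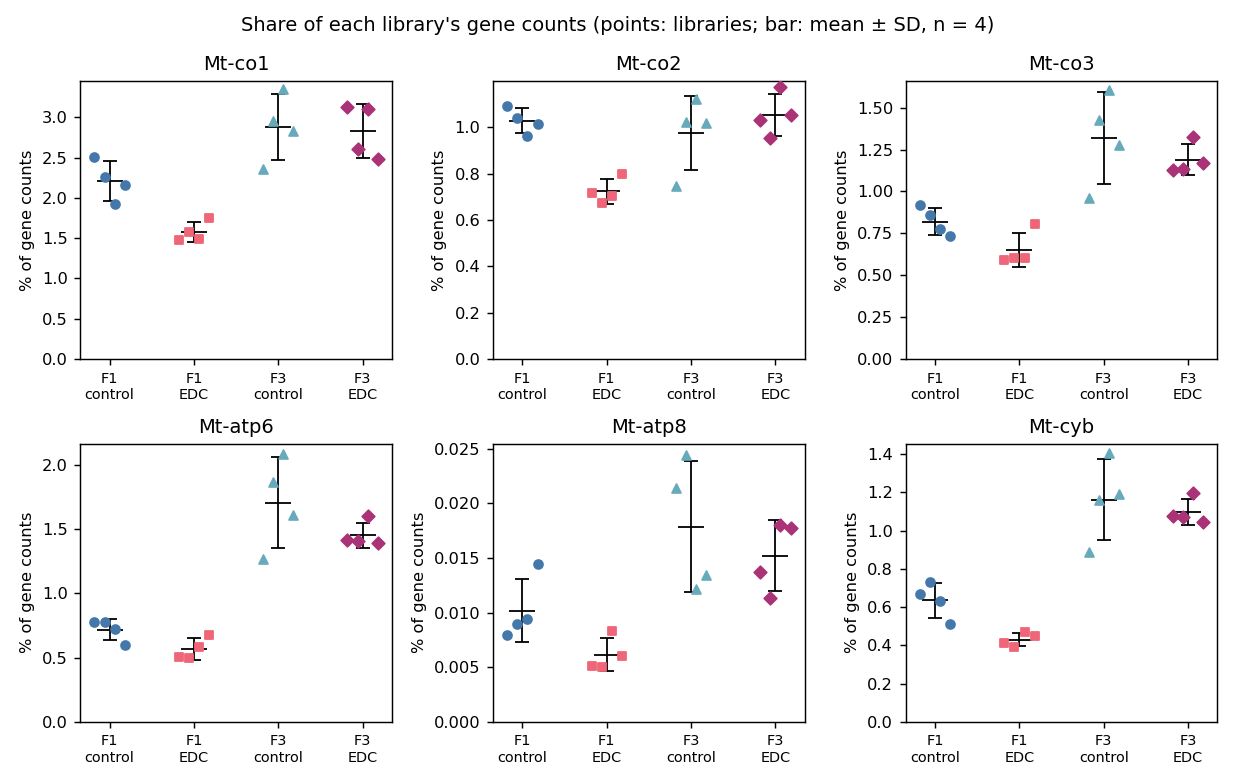
Share of each library's gene counts (percent, vertical axis, from 0) for each of the 6 genes, by group; points are libraries, and bars the mean and SD of 4. The F1 EDC mean is the lowest of the 4 groups in every panel, and the Mt-co2 panel is the one in which F1 control (1.03%) lies near the F3 groups (0.977% and 1.05%).

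The first comparison asked how the 6 genes differed between exposed and vehicle rats in F1. All 6 were lower in EDC in edgeR's test, at 0.554 (Mt-atp8) to 0.724 (Mt-co3) times the control level, or log2 fold changes of -0.85 to -0.47. In these bulk samples fewer cells of a type and less RNA per cell cannot be told apart. Of the 15366 genes tested, 52.4% passed the threshold of an adjusted p of 0.05 in this comparison (27.0% lower and 25.4% higher), so the 6 calls stand among many. With library sizes alone in place of TMM factors, 3144 genes were lower and 4579 higher, against 4150 and 3907. The median log2 fold change was -0.62 over the 6 genes and -0.00 over all genes tested, where the median absolute change was 0.44. In CPM, a gene's count relative to its library's size after TMM scaling, the F1 groups did not overlap for 5 of the 6 genes, all lower in EDC. Of all genes tested 22.0% were lower and 22.1% higher without overlap. As a plain share of gene counts, Mt-co3 and Mt-atp8 overlapped as well as Mt-atp6.

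Mt-co1, the catalytic subunit of cytochrome c oxidase, was at 26906, 20421, 20166 and 21767 CPM in F1 control replicates 1 to 4. In F1 EDC it was at 14229, 14536, 13608 and 15847 CPM. The highest EDC library was thus well below the lowest control. Its log2 fold change was -0.62 (SE 0.10; edgeR adjusted p = 7.14e-05). Mt-co2, the subunit that accepts electrons from cytochrome c, was at 11706, 9383, 10129.5 and 10231 CPM in F1 control. It was at 6913, 6229, 6418 and 7196 CPM in F1 EDC, again with no overlap. Its log2 fold change was -0.63 (SE 0.10; edgeR adjusted p = 6.19e-05). Mt-co3, the remaining mitochondrially encoded subunit of the enzyme, was at 9814, 7732, 8129.7 and 7418 CPM in F1 control and 5663, 5582, 5475 and 7252 CPM in F1 EDC. The groups were close here, with EDC replicate 4 just below control replicate 4. The log2 fold change was -0.47 (SE 0.14; edgeR adjusted p = 0.0146).

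Of the ATP synthase genes, Mt-atp6, which encodes the subunit that forms the proton path with the rotor ring, was at 8349.6, 6992, 7551.5 and 6053 CPM in F1 control. In F1 EDC it was at 4874, 4578, 5322 and 6111 CPM. EDC replicate 4 lay above control replicate 4, so that the groups overlapped, and the change in Mt-atp6 was -0.47 (log2; SE 0.14; edgeR adjusted p = 0.0119). Mt-atp8, a small subunit of the membrane part, was at 84.7, 80.6, 99.04 and 146 CPM in F1 control and 49.5, 46.6, 75.2 and 54.7 CPM in F1 EDC. Its log2 fold change was the largest of the 6 in size and the least precise, at -0.85 (SE 0.29; edgeR adjusted p = 0.0269). This call ended when single libraries were left out: without F1 control replicate 4 the log2 fold change was -0.64 (edgeR adjusted p = 0.0858), and without F1 EDC replicates 1, 2 and 4 in turn it was -0.79, -0.77 and -0.84 (edgeR adjusted p = 0.0672, 0.0711 and 0.0576). It also ended with limma voom (log2 fold change -0.82, adjusted p = 0.0693).

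Mt-cyb, cytochrome b, was at 7155, 6579, 6627 and 5151 CPM in F1 control. In F1 EDC it was at 3979.5, 3612, 4261 and 4044 CPM. No EDC library reached the control range, and the change in Mt-cyb was -0.68 (log2; SE 0.11; edgeR adjusted p = 8.80e-05).

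The share of multimapping reads moved with these groups. It was 36.3%, 19.9%, 43.2% and 41.6% in F1 control replicates 1 to 4 and 51.6%, 46.7%, 44.9% and 41.8% in F1 EDC. At nearly the same multimapping share, F1 control replicates 3 and 4 held 5.02% and 5.03% of gene counts in the 6 genes, and F1 EDC replicate 4 held 4.48%. That comparison rests on a single EDC library. With the multimapping share as a covariate, an alternative chosen after seeing the data, all 6 genes again passed as lower in F1 EDC, with log2 fold changes of -1.06 to -0.41. Leaving out the 8 libraries over 40% multimapping, also chosen after seeing the data, leaves no F1 EDC library. The F1 comparison could thus not be made without them. The F1 groups shared only a narrow range of multimapping, from EDC replicate 4 at 41.8% to control replicate 3 at 43.2%. Multimapping and exposure therefore cannot be told apart by these fits.

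**Figure D2:**
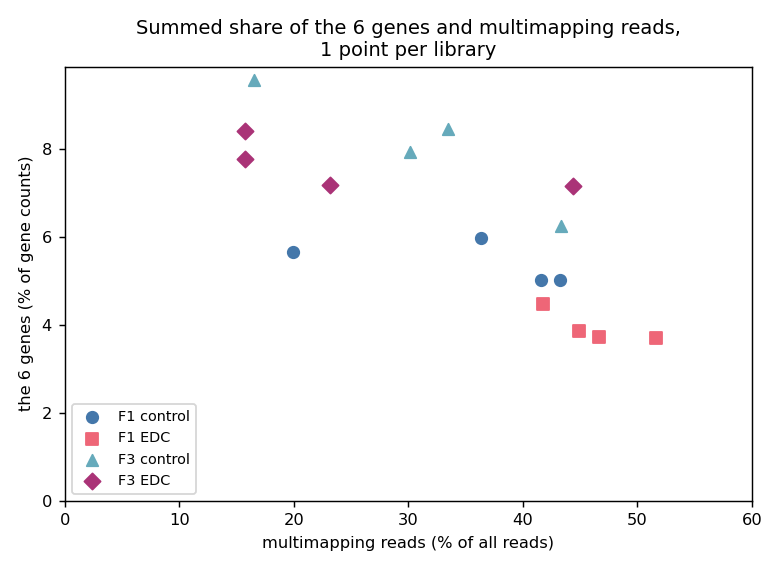
Summed share of the 6 genes (percent of gene counts, vertical axis, from 0) against the share of multimapping reads (percent of all reads, horizontal axis), 1 point per library and 1 symbol per group. The F1 EDC libraries lie lowest, at 3.71% to 4.48% of gene counts, and F3 libraries with over 40% multimapping (F3 control replicate 1 at 6.25%, F3 EDC replicate 4 at 7.16%) lie above all F1 libraries.

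The second comparison asked whether ancestral exposure left a difference in F3. None of the 6 genes passed in edgeR, where 2.94% of all genes tested did (1.07% higher and 1.87% lower). Those 165 higher and 287 lower genes became 137 and 29 with library sizes alone. DESeq2 and limma voom likewise called 0 of the 6. At an unadjusted p under 0.05 edgeR gave 1 of the 6 genes, Mt-atp6, and 2549 of all 15366 genes tested. Log2 fold changes were negative for 5 genes and positive for Mt-co2, with a median of -0.19 against -0.03 over all genes tested. That median was -0.086 when F3 control replicate 3 was left out and -0.12 when replicate 2 was, and it was -0.11 with library sizes alone and -0.29 without the libraries over 40% multimapping. In CPM the F3 groups overlapped for all 6 genes, where 4.93% of all genes tested were higher and 7.32% lower without overlap.

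In CPM the SD among F3 controls exceeded that among F3 EDC libraries for each of the 6 genes. This was not tested, and over the 1933 genes with a mean of at least 100 CPM the median coefficient of variation was likewise larger in F3 control (7.60%) than in F3 EDC (5.36%). Mt-atp6 stood at 13618, 20742, 22049 and 16400.2 CPM in F3 control replicates 1 to 4, against 13836, 13914, 15524 and 15545 CPM in F3 EDC. Only control replicate 1 lay below the EDC libraries. The log2 fold change was -0.31 (95% interval -0.61 to -0.0042; edgeR unadjusted p = 0.0473, adjusted p = 0.294). Mt-co1 was at 25366, 32803, 35462 and 28863 CPM in F3 control. In F3 EDC it was at 30590.4, 25850.3, 30114 and 27686 CPM, inside the control range. The log2 fold change was -0.10 (95% interval -0.32 to 0.11; edgeR adjusted p = 0.681).

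Mt-co2 took values of 8027, 11357, 11841.5 and 10357.5 CPM in F3 control, against 10112, 9424, 11393 and 11743 CPM in F3 EDC. Its log2 fold change was 0.04 (95% interval -0.18 to 0.26; edgeR adjusted p = 0.901), and it turned negative without F3 control replicate 1 (-0.069) or without F3 EDC replicate 4 (-0.012). The intervals of Mt-co3 (-0.53 to 0.09), Mt-atp6 and Mt-atp8 (-0.93 to 0.30) reach the log2 fold change that Mt-co3 had in F1, -0.47. Those of Mt-co1, Mt-co2 and Mt-cyb (-0.39 to 0.09) do not. Mt-atp8 varied most: it was at 230.02 and 272 CPM in F3 control replicates 1 and 2 but at 129 and 137 CPM in replicates 3 and 4, and its F3 EDC values ran from 112 to 198 CPM.

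The effects of the 2 generations were compared directly by an interaction contrast. The effect in F3 was higher than in F1 for 3 of the 6 genes, where 43.6% of all genes tested passed and 21.8% were higher. The F3 minus F1 log2 fold change was 0.67 for Mt-co2 (SE 0.15; edgeR adjusted p = 0.00130), 0.52 for Mt-co1 (SE 0.14; edgeR adjusted p = 0.00803) and 0.53 for Mt-cyb (SE 0.16; edgeR adjusted p = 0.0138). It did not pass for Mt-co3, at 0.24 (edgeR adjusted p = 0.367), for Mt-atp6, at 0.16 (edgeR adjusted p = 0.551), or for Mt-atp8, at 0.54 (edgeR adjusted p = 0.318).

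**Figure D3:**
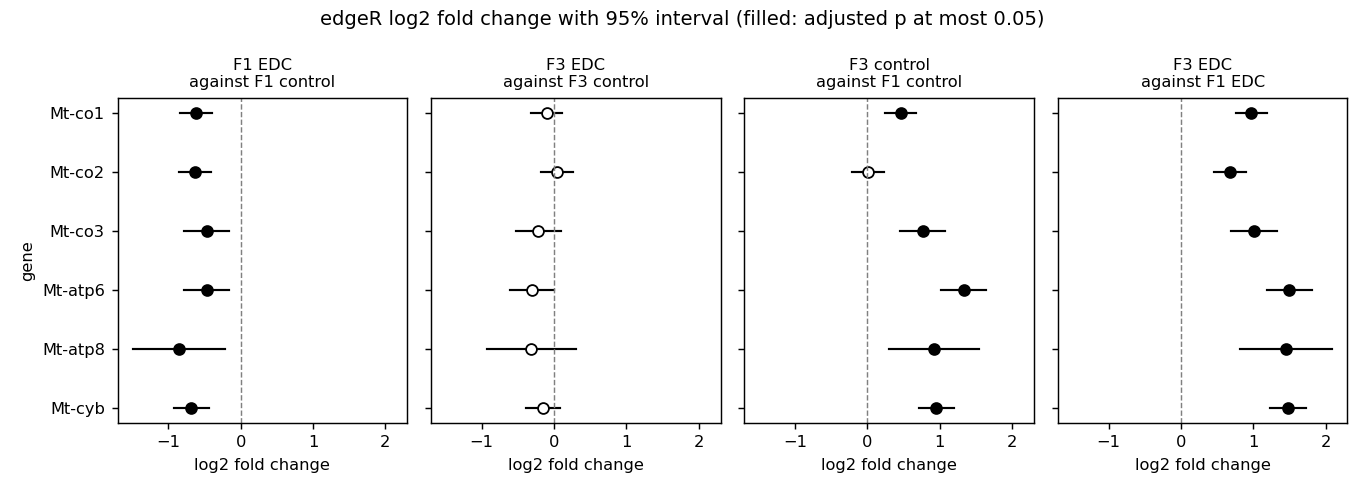
Log2 fold change (horizontal axis) with its 95% interval for each gene in 4 comparisons, from edgeR; filled points passed an adjusted p of 0.05. All 6 points are filled and below 0 in F1, none is filled in F3, and Mt-co2 stays near 0 (0.00) in F3 control against F1 control while Mt-atp6 reaches 1.33.

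F3 control was also set against F1 control, and F3 EDC against F1 EDC. In these contrasts the lane number in the file names differs along with the generation. Among controls 5 of the 6 genes were higher in F3, against 27.5% of all genes tested that passed (14.6% higher and 12.9% lower). With library sizes alone, 1656 genes were higher and 2600 lower, against 2250 and 1983. The log2 fold change was 1.33 for Mt-atp6 (SE 0.14; edgeR adjusted p = 6.59e-06), 0.95 for Mt-cyb (SE 0.11; edgeR adjusted p = 8.22e-06) and 0.76 for Mt-co3 (SE 0.15; edgeR adjusted p = 0.00118). In these genes all F3 controls lay above all F1 controls in CPM, as did 13.6% of all genes tested, while 11.6% lay below without overlap. Mt-co1 rose by less, 0.46 (SE 0.10; edgeR adjusted p = 0.00270), with overlapping groups. Mt-co2 did not pass, at 0.00 (95% interval -0.21 to 0.22; edgeR adjusted p = 0.982), and its sign changed with the scaling: it was -0.035 with upper quartile factors and -0.074 with library sizes alone.

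Mt-atp8 was higher in F3 control by 0.92 (SE 0.29; edgeR adjusted p = 0.0315). That call ended without F1 control replicate 1, 2 or 3 (log2 fold changes 0.84, 0.83 and 0.91; edgeR adjusted p = 0.0841, 0.0813 and 0.0659) and without F3 control replicate 1 or 2 (0.82 and 0.70; edgeR adjusted p = 0.0812 and 0.0989). It ended too in a fit of the control libraries alone (0.92; edgeR adjusted p = 0.0786) and without the libraries over 40% multimapping (1.13; edgeR adjusted p = 0.0939).

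Between the EDC groups all 6 genes were higher in F3, where 53.5% of all genes tested passed, 27.0% higher and 26.5% lower. These were 4146 higher and 4070 lower genes, or 3120 and 4822 with library sizes alone. All F3 EDC libraries lay above all F1 EDC libraries in CPM for each of the 6 genes, as they did for 25.8% of all genes tested, with 25.7% below. The log2 fold changes ran from 0.67 for Mt-co2 (SE 0.10; edgeR adjusted p = 2.95e-05) through 0.97 for Mt-co1 and 1.01 for Mt-co3 to 1.46 for Mt-atp8, 1.48 for Mt-cyb and 1.49 for Mt-atp6 (SE 0.14; edgeR adjusted p = 5.57e-07).

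The order of the group means in CPM was the same for Mt-co1, Mt-co3, Mt-atp6, Mt-atp8 and Mt-cyb: F1 EDC, F1 control, F3 EDC, F3 control. F1 control and F3 EDC, neighbours in that order, did not overlap for Mt-co3 (7418 to 9814 against 11043 to 13036 CPM), Mt-atp6 (6053 to 8349.6 against 13836 to 15545 CPM) and Mt-cyb (5151 to 7155 against 10547 to 11631 CPM). Between these groups 10.4% of all genes tested were higher in F3 EDC without overlap and 9.43% lower. They overlapped for Mt-co1 (20166 to 26906 against 25850.3 to 30590.4 CPM) and for Mt-atp8 (80.6 to 146 against 112 to 198 CPM). The F3 groups overlapped for every one of the 6 genes. For Mt-co2 only F1 EDC stood apart, with F1 control at 10362 ± 972, F3 control at 10396 ± 1696 and F3 EDC at 10668 ± 1086 CPM (SD, n = 4 each).

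Ratios between members within a library do not depend on the scaling, and they show how unequally the genes were placed in the 2 generations. A ratio of raw counts also carries the lengths of the genes, so only its differences between groups are described. Mt-atp6 counts were 0.592 to 0.745 times those of Mt-co2 in F1 control and 0.705 to 0.849 times in F1 EDC. They were 1.58 to 1.86 times those of Mt-co2 in F3 control and 1.32 to 1.48 times in F3 EDC. The ratio was therefore higher in all 8 F3 libraries than in any of the 8 F1 libraries.

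The same ratio also set the F3 groups apart: log2 of Mt-atp6 over Mt-co2 was 0.80 ± 0.11 in F3 control and 0.47 ± 0.07 in F3 EDC (SD, n = 4), with all EDC libraries below all controls. Mt-co3 over Mt-co2 behaved alike, at 0.42 ± 0.09 in F3 control and 0.18 ± 0.05 in F3 EDC. Mt-cyb over Mt-co2 was 0.25 ± 0.06 and 0.06 ± 0.08, again with no overlap. The other ratios to or from Mt-co2 overlapped: Mt-co2 over Mt-co1 was -1.66 to -1.48 in F3 control and -1.60 to -1.24 in EDC, and Mt-atp8 over Mt-co2 was -6.52 to -5.13 and -6.39 to -5.89. Of all 15 ratios between pairs of the 6 genes, the groups did not overlap for 5 in F3 and 1 in F1. These are descriptions without a test, the ratios share genes, and no share over other gene pairs was computed.

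The ratio whose F1 groups did not overlap was Mt-cyb over Mt-atp6, at -0.18 ± 0.07 in control and -0.39 ± 0.14 in EDC (log2; SD, n = 4). In F3 it lay the other way, at -0.55 ± 0.11 in control and -0.41 ± 0.01 in EDC. Against Mt-co2, log2 of Mt-atp6 was -0.52 ± 0.16 in F1 control and -0.36 ± 0.13 in F1 EDC, and that of Mt-cyb was -0.71 ± 0.21 and -0.75 ± 0.11 (SD, n = 4), with overlap in both. Mt-co1 took 38.3% to 42.9% of the counts of the 6 genes in F1 control and 38.7% to 42.0% in F1 EDC. The ratio of Mt-atp8 to Mt-atp6, which share a message, varied widely between libraries of a group. It was 0.0101 to 0.0241 in F1 control, where replicate 4 was the highest, and 0.00583 to 0.0169 in F3 control.

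**Figure D4:**
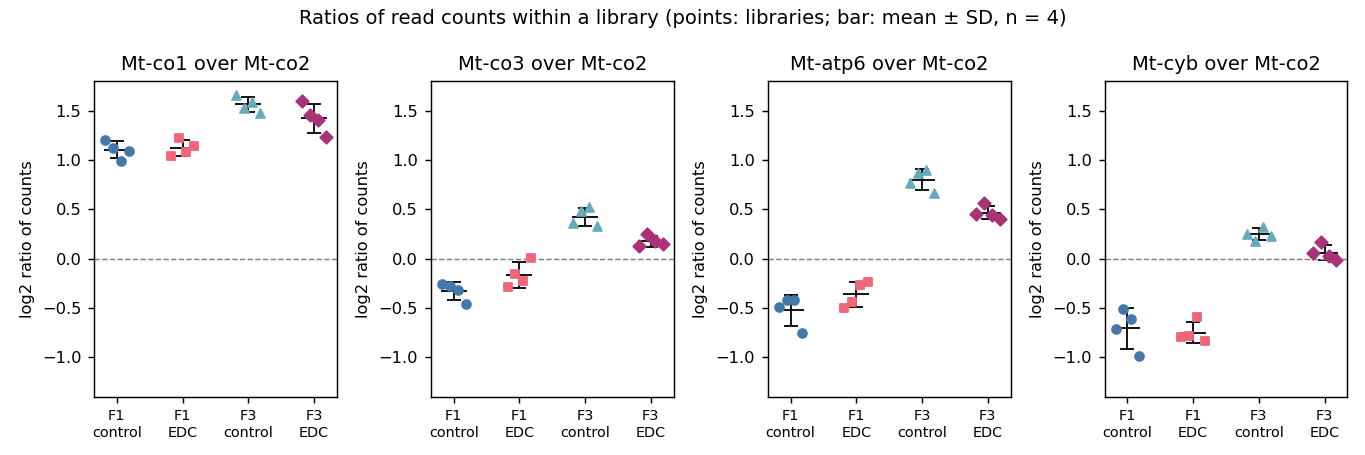
Log2 ratio of the read counts of Mt-co1, Mt-co3, Mt-atp6 and Mt-cyb to those of Mt-co2 within a library (vertical axis), by group; points are libraries, and bars the mean and SD of 4. In the Mt-atp6 panel all F1 libraries are below all F3 libraries, and F3 EDC (0.47 ± 0.07) lies below F3 control (0.80 ± 0.11).

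Reads on the strand opposite to the 6 genes were counted in a separate column. Messages of few genes come from that strand of the mitochondrial DNA, but it too is read into long RNAs that cross these genes. Opposite-strand reads were rare: summed over the 6 genes they were 0.0297% to 0.0523% of stranded counts in F1 control against 0.0768% to 0.0987% in EDC. In F3 they were 0.0929% to 0.145% in control against 0.149% to 0.179% in EDC. Neither generation's groups overlapped, a description without a test. In F3 the gap was narrow, with control replicate 4 at 0.145% and EDC replicate 3 at 0.149%. The denominator holds the counts of the 6 genes themselves, whose share of gene counts was lower in F1 EDC. How far that raised the opposite-strand share was not tested. How many other genes had opposite-strand shares without overlap was not computed, here or for the single genes below. Over all gene IDs the opposite-strand share was far higher, and control and EDC overlapped in both generations. It was 1.51% to 1.62% in F1 control and 1.56% to 1.64% in F1 EDC. For F3 it was 1.70% to 1.87% in control and 1.77% to 1.85% in EDC.

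In F1 the opposite-strand reads lay mainly at Mt-cyb and Mt-co1. At Mt-cyb they numbered 166, 227, 122 and 63 in control replicates 1 to 4, or 0.175%, 0.162%, 0.138% and 0.218% of its stranded counts. In F1 EDC they numbered 306, 207, 181 and 614, or 0.532%, 0.402%, 0.390% and 0.380%. The groups did not overlap. The nearest libraries were control replicate 4 (95% exact interval 0.167% to 0.278%) and EDC replicate 4 (0.350% to 0.411%), and these intervals cover counting error within a library, not the spread between samples. At Mt-co1 the share was 0.0194% to 0.0467% in F1 control and 0.0562% to 0.0878% in F1 EDC. Here the intervals of the nearest libraries overlapped: control replicate 4 (0.0354% to 0.0605%) and EDC replicate 3 (0.0448% to 0.0697%). The F1 shares of Mt-co2 did not overlap (0.00450% to 0.0126% in control, 0.0144% to 0.0677% in EDC). Those of Mt-co3 (0.00182% to 0.0361% and 0.0185% to 0.0277%) and Mt-atp6 (0% to 0.0324% and 0.0139% to 0.0328%) did.

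At Mt-co3 the contrast was between generations. It had 3 to 20 opposite-strand reads per library in F1 control and 11 to 58 in F1 EDC, but 341 to 781 in F3 control and 344 to 948 in F3 EDC. As a share these were at most 0.0361% in any F1 library and at least 0.153% in any F3 library. Within F3 the share was higher in EDC (0.272% to 0.315%) than in control (0.153% to 0.242%), with no overlap. Mt-co2 showed the same order, with 0.0977% to 0.134% in F3 control and 0.146% to 0.186% in F3 EDC. For both genes the 95% exact intervals of the nearest libraries overlapped. At Mt-co3 they were 0.217% to 0.269% (control replicate 4) and 0.255% to 0.290% (EDC replicate 1). At Mt-co2 they were 0.119% to 0.151% (control replicate 1) and 0.125% to 0.171% (EDC replicate 4). The F3 groups overlapped for Mt-atp6 (0.0724% to 0.146% and 0.121% to 0.178%) and Mt-cyb (0.129% to 0.249% and 0.214% to 0.295%). At Mt-co1, F3 EDC (0.0744% to 0.0883%) lay inside the control range (0.0554% to 0.0995%). At Mt-atp8 the count was 0 in all 8 F1 libraries, which in F1 EDC replicate 2, with the fewest counts, allows a share of up to 0.453% (3 counts of 662), and 1 to 17 in F3.

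**Figure D5:**
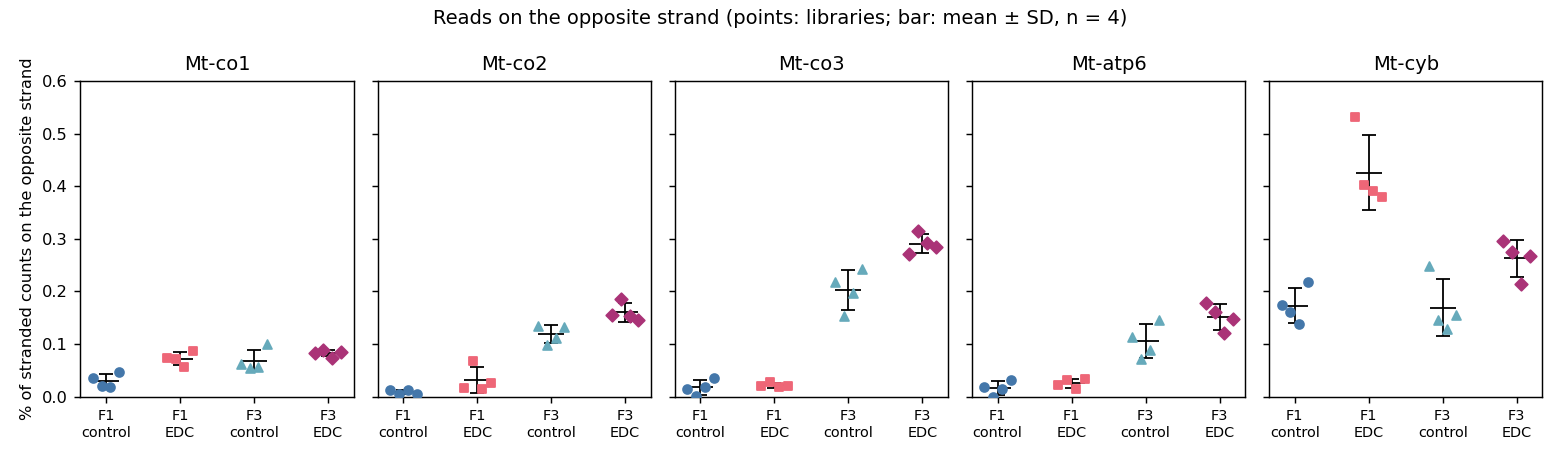
Share of stranded counts on the opposite strand (percent, vertical axis, from 0) for 5 of the 6 genes, by group; points are libraries, and bars the mean and SD of 4. Mt-cyb is highest in F1 EDC (0.380% to 0.532%), whereas Mt-co3 is at most 0.0361% in F1 and at least 0.153% in F3.

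Counting without regard to strand changed 1 gene: Mt-co1 kept 92.6% to 95.1% of its stranded count in the unstranded column, and the other 5 genes kept 99.4% to 100.5%. Among the 15360 other genes tested, those most like the 6 were sought by Pearson's r over 16 libraries between a gene's log2 CPM and the mean log2 CPM of the 6. The r of the members themselves with that mean ran from 0.844 for Mt-co2 to 0.982 for Mt-cyb. Each member is part of that mean, which raises its r, so these values are not comparable with those of other genes. The highest r of another gene was 0.981, for ENSRNOG00000011227, at 562.5 ± 15.2 CPM for F1 control, 358 ± 25.4 for F1 EDC, 1095 ± 99.6 for F3 control and 951 ± 57.7 for F3 EDC (SD, n = 4). The next was 0.978, for ENSRNOG00000030644, at 3925 ± 676, 2132 ± 309, 12390 ± 2440 and 9821 ± 988 CPM in the same order. The groups differ in level and the libraries share a scaling, so these r values describe the likeness of patterns and nothing more.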

How the data were processed

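The authors deposited read counts per gene, 1 file per library, in STAR's gene count layout (unstranded counts and the counts of each strand, after 4 summary lines). Read trimming software Trimmomatic 0.33, the aligner TopHat2 2.1 and build rn6 are listed, per the submitters' processing notes (STAR's version: not given in the sources used here). Libraries were single reads of 100 cycles, per the labels' protocols. The fourth column was used, since it held at least 52.5 times the gene counts of the other strand in every library. Reads mapping to several places are not in these counts, so reads shared with near-identical copies elsewhere in the genome are missing.

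The whole table was filtered (filterByExpr, count minimum 10), scaled by TMM and fitted as 4 group means over 16 libraries with edgeR 4.0.16 (R 4.3.3; quasi-likelihood F test, robust, two-sided). Benjamini-Hochberg adjustment ran over all 15366 genes tested, with a threshold of 0.05. Intervals of 95% use the fit's own degrees of freedom. The procedure was tested on simulated data. Alternatives used DESeq2 1.42.0 and limma 3.58.1 among others. No library pair held identical counts.

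The 6 genes, the comparisons and the alternatives were chosen with earlier results of these data known. All 6 genes are named. Likeness was ranked by Pearson's r of log2 CPM (prior count 2), and without names only the 2 highest IDs are given. Planned lists of nuclear-encoded respiratory subunits, other mitochondrial genes and cell type markers were not analysed here, because 0 of the 47357 genes of the gene table at hand (assembly GRCr8) carry an Ensembl ID.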

Additional observations from a re-analysis of the deposited data

Results flagged for a closer look

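The fold change of EDC over control differed between the generations for Mt-co1, Mt-co2 and Mt-cyb. The F3 minus F1 log2 fold change was 0.52, 0.67 and 0.53, each past the threshold of edgeR's interaction contrast. Of all genes tested 43.6% passed that contrast, 21.8% of them all being higher. Generation and sequencing cannot be told apart here. Single libraries stood apart from the other 3 of their group in 5 of 52 sets of 4 values examined (each gene's share of gene counts, its opposite-strand share and the summed share). Chance alone gives about 1 in 20 such sets. F1 EDC replicate 4 had Mt-co3 at 0.803% of gene counts, against 0.588% to 0.603% in the other F1 EDC libraries. F3 EDC replicate 3 had Mt-atp6 at 1.60%, against 1.39% to 1.41%. On the opposite strand, F3 control replicate 4 had 0.0995% of the stranded counts of Mt-co1, against 0.0554% to 0.0629%. F1 EDC replicate 2 had 0.0277% for Mt-co3, against 0.0185% to 0.0201%, and F1 EDC replicate 1 had 0.532% for Mt-cyb, against 0.380% to 0.402%.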

How the results depend on the processing

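Of 846 fold changes recomputed under alternatives, 821 kept their direction and their side of the threshold, 14 lost the call (all Mt-atp8) and 11 changed sign (all Mt-co2, none of them called in the reported fit). For Mt-co2 in F3 these were -0.090 without the libraries over 40% multimapping and, among fits without single libraries, a range of -0.069 to 0.11. For Mt-co2 in F3 control against F1 control they were -0.035 with upper quartile factors, -0.074 with library sizes alone, -0.0084 with limma voom and -0.0042 with the multimapping covariate. Fits of that contrast without single libraries gave -0.064 to 0.11. For each comparison between a pair of groups, the 846 fold changes include fits that left out a library of another group. These fits kept all libraries compared, so they put the fold change to little test. All of them fell among the 821, a tally that thus overstates how far the fold changes were tested. The number of the 6 genes called was 5 to 6 in F1, 0 in F3, 3 in the interaction, 4 to 5 between controls and 6 between EDC groups. Relative to all reads the summed shares were 2.08%, 1.15%, 3.60% and 3.65% (F1 control, F1 EDC, F3 control, F3 EDC), and relative to the other gene counts 8.28% in F3 EDC. Without single libraries they ranged over 5.24% to 5.56%, 3.77% to 4.03%, 7.55% to 8.66% and 7.38% to 7.80%. Library sizes alone moved the median log2 fold change of all genes to 0.11 in F1, from -0.00, and that of the 6 genes to -0.50, from -0.62; the all-gene median moved to -0.11 between controls and -0.12 between EDC groups. The 452 genes called over the whole table in F3 were 166 with library sizes alone, 775 with DESeq2, 1522 with limma voom, 34 to 553 without single libraries (34 with F3 EDC replicate 3 left out, 87 with F3 control replicate 2 left out) and 0 without those over 40% multimapping (2240 at an unadjusted p under 0.05). With the replicate block the count of the 6 genes was 5 in F1, 0 in F3 and 4 between controls, each drop being Mt-atp8 (adjusted p = 0.0552 and 0.0561). Same-numbered control and EDC libraries had correlations of -0.108 to 0.0884 in their deviations from the group means. No pairing by number was visible in expression, which does not show whether the numbers stand for one. An EDC library correlated best with the control of its own number in 3 of 8 cases. Low counts limit the opposite-strand shares and Mt-atp8.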
